A study of Gallus gallus with 3 samples.

Results

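The Z chromosome is the sex chromosome that both sexes of birds carry: males have a pair of Z, and females have a Z and a W. All H3K4me3 and H3K27me3 peaks that the deposited lists place on Z are described here, 939 of 18681 peaks in all. They comprise 608 of 12414 H3K4me3 peaks and 331 of 6267 H3K27me3 peaks. The marks were mapped by chromatin immunoprecipitation and sequencing (ChIP-seq) in trypsin-dissociated neural tubes of WT White Leghorn embryos at stage HH30, after fixation in 1% formaldehyde for 10 min. One library was made for each mark, with an antibody from Abcam for H3K4me3 and one from Millipore for H3K27me3, and an Input library was not used here. The number of embryos pooled is not in the labels, and the tubes hold a mixture of neural cell types. Chromosomes 4 and 5, autosomes of similar size, served for comparison. With 1 library per mark there is no replicate check and no p-value, and every interval below covers counting error only.

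H3K4me3, trimethylation of lysine 4 of histone H3, is laid down by SET1 and MLL enzymes and marks promoters in use or held ready for use. H3K27me3, trimethylation of lysine 27, is laid down by the Polycomb complex PRC2 over silent developmental genes, and promoters with both marks are called bivalent. Birds do not silence a whole Z chromosome, and Z-linked genes are only partly balanced between the sexes. The far end of the long arm of chicken Z is known as heterochromatic, and a tandem array of testis-expressed genes is known from the long arm; neither was located on these coordinates. The labels do not give the sex of the embryos, so a lower copy number of Z in females and a lower density of peaks on Z cannot be told apart. The lists also held 7 H3K4me3 peaks and 1 H3K27me3 peak on W, with scores of at most 604.0 and 72.99. No gene annotation of the authors' assembly, galGal4, was used, and no gene is named.

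Z carried fewer peaks of both marks than chromosomes 4 and 5 for its size. There were 7.39 H3K4me3 peaks per Mb on Z (95% Poisson interval 6.81 to 7.998), against 10.1 on chromosome 4 (9.46 to 10.8) and 12.9 on chromosome 5 (12.0 to 13.9). For H3K27me3 there were 4.02 per Mb on Z (3.60 to 4.48), against 4.95 on chromosome 4 (4.51 to 5.44) and 6.56 on chromosome 5 (5.93 to 7.25). For H3K27me3 the order against chromosome 4 depended on whether close peaks were joined. With peaks at most 5 kb apart joined, Z had 3.13 H3K27me3 regions per Mb, chromosome 4 had 2.82 and chromosome 5 had 3.51. For H3K4me3 the joined regions numbered 6.83, 8.14 and 10.3 per Mb. Length was taken up to the end of the last peak, which is 82.3 Mb on Z, 90.2 Mb on chromosome 4 and 59.6 Mb on chromosome 5. Among Z and the 28 numbered chromosomes with peaks, Z had the lowest density of H3K4me3; chromosome 2, with 8.48 per Mb, was the next. In H3K27me3 density Z ranked 27 of 29, with chromosomes 1 (3.0 per Mb) and 2 (3.5 per Mb) below it. Z had 184 H3K4me3 peaks per 100 H3K27me3 peaks (exact binomial interval 160 to 211), chromosome 4 had 204 (182 to 229) and chromosome 5 had 197 (174 to 223). These intervals overlap.

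Along Z the marks were distributed differently. A 1 Mb window held 0 to 18 H3K4me3 peaks, with a median of 7, and 0 to 20 H3K27me3 peaks, with a median of 2. H3K4me3 was spread over most of the chromosome, and its 10 fullest windows held 24.7% of its peaks on Z. H3K27me3 was less evenly spread. It had 117 peaks from 73 Mb to the end and 19 in the first Mb, but 1 from 2 to 6 Mb. Some windows away from the ends were also full, with 14 peaks from 13 to 14 Mb and 11 from 22 to 23 Mb. The 10 fullest H3K27me3 windows held 43.8% of the H3K27me3 peaks on Z. On chromosomes 4 and 5 the 10 fullest windows held 26.5% and 32.9% of H3K4me3 and 42.5% and 57.0% of H3K27me3.

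Along Z, 3 stretches differed in the balance of the marks, with limits drawn after the windows were seen. The first 26 Mb held 243 H3K4me3 peaks (39.97% of those on Z) and 128 H3K27me3 peaks (38.7%). From 26 to 73 Mb there were 334 H3K4me3 peaks (54.9%) but only 86 H3K27me3 peaks (25.98%). From 73 Mb to the end there were 31 H3K4me3 peaks (5.10%) and 117 H3K27me3 peaks (35.3%). The few H3K27me3 peaks of the middle stretch were mostly shared: 63 of 86 overlapped H3K4me3 (73.3%; 95% Wilson interval 63.1 to 81.5%), against 50 of 128 in the first 26 Mb (39.1%; interval 31.05 to 47.7%). In the third stretch few were shared, 1 of 70 from 73 to 78 Mb and 8 of 47 beyond 78 Mb (17.0%; interval 8.89 to 30.1%). Counted from the side of H3K4me3, the first and middle stretches were alike. In the middle stretch 61 of 334 peaks met H3K27me3 (18.3%, interval 14.5 to 22.8%). In the first 26 Mb 49 of 243 did (20.2%, interval 15.6 to 25.7%). From 73 to 78 Mb 1 of 2 did, and beyond 78 Mb 7 of 29 did (24.1%, interval 12.2 to 42.1%). Because the limits were drawn from the counts of both marks, none of these intervals tests a difference between stretches. H3K27me3 peaks scoring 3100 or more numbered 19 in the first stretch, 5 in the second and 6 in the third. The score is the authors' own value for each peak, on a scale that the files do not name. Many peaks have a score of exactly 3100, few lie above it, and scores give an order of peaks rather than folds of enrichment.

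**Figure D1:**
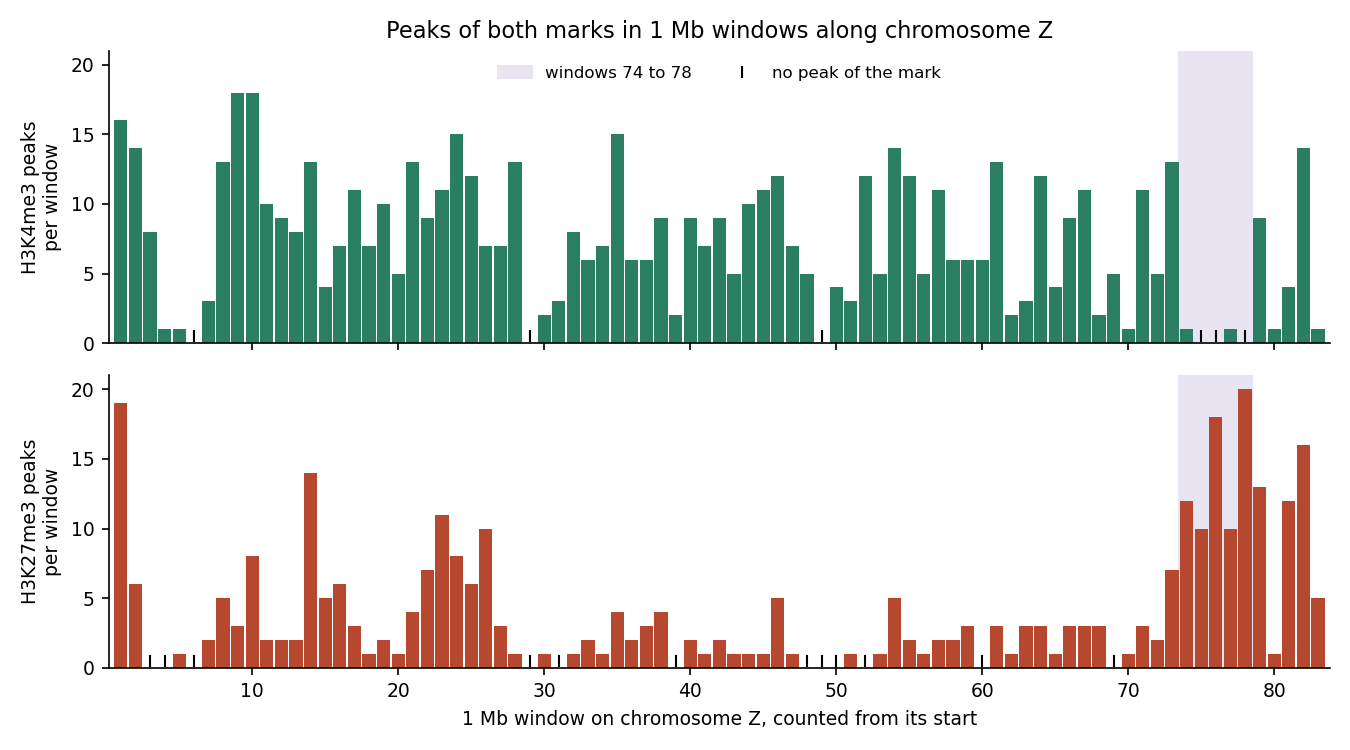
Number of H3K4me3 peaks (top) and H3K27me3 peaks (bottom) in each of the 83 windows of 1 Mb along chromosome Z, numbered from its start; ticks mark windows with no peak of the mark. In the shaded windows 74 to 78, H3K4me3 had 0 or 1 peak each and H3K27me3 had 10 to 20.

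The fullest H3K4me3 windows were those from 8 to 9 Mb and from 9 to 10 Mb, with 18 peaks each. They were followed by the first Mb with 16, and by the windows from 23 to 24 Mb and from 34 to 35 Mb with 15 each. In these windows H3K27me3 had 3, 8, 19, 8 and 4 peaks. The fullest H3K27me3 windows were from 77 to 78 Mb (20 peaks), the first Mb (19), from 75 to 76 Mb (18), from 81 to 82 Mb (16) and from 13 to 14 Mb (14). H3K4me3 had 0, 16, 0, 14 and 13 peaks there, so windows rich in H3K27me3 held from no H3K4me3 peak to 16. Spearman's rho between the counts of H3K4me3 and H3K27me3 was 0.35 over the 83 windows, against 0.59 over 91 windows of chromosome 4 and 0.38 over 60 windows of chromosome 5. The windows come from the same 2 lists, and without the 5 windows from 73 to 78 Mb the value on Z was 0.58. Those 5 were chosen for many H3K27me3 and few H3K4me3 peaks, so leaving them out raises the value by construction. No windows were left out of chromosomes 4 and 5.

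The 5 windows from 73 to 78 Mb formed a stretch of H3K27me3 with almost no H3K4me3. They held 2 H3K4me3 peaks, or 0.400 per Mb (95% Poisson interval 0.0484 to 1.44), against 606 in the rest of Z, or 7.84 per Mb (7.23 to 8.49). H3K27me3 had 70 peaks, or 14 per Mb (10.9 to 17.7), against 261 in the rest of Z, or 3.38 per Mb (2.98 to 3.81). The limits were drawn from these counts, so the intervals do not test a difference from the rest of Z. The stretch made up 6.07% of the length of Z and held 21.1% of its H3K27me3 peaks. From the first window to the fifth, the H3K27me3 counts were 12, 10, 18, 10 and 20, and the H3K4me3 counts were 1, 0, 0, 1 and 0.

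Windows of this balance were rare on the numbered chromosomes and Z. Of 1016 windows of 1 Mb, 5 held at least 10 H3K27me3 peaks and at most 1 H3K4me3 peak, a share of 0.492%, and these were the 5 that the limits had been drawn from. Among 168 windows with at least 10 H3K27me3 peaks on other chromosomes, the fewest H3K4me3 peaks were 4, on chromosomes 3, 6 and 17. With limits of 8 and 2 peaks a window on chromosome 19 was added, and with limits of 5 and 1 peaks another on Z and 1 on chromosome 6. With the limits of 10 and 1 and windows shifted by 500 kb, 6 windows passed, 5 on Z and 1 on chromosome 17. The first of those on Z began at 73.5 Mb, and the last, which began at 79.5 Mb, lay outside the stretch. In windows of 500 kb with at least 5 H3K27me3 and no H3K4me3 peaks, 6 of 13 lay on Z and the other 7 on chromosomes 2, 3, 4, 6, 12 and 17.

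The H3K27me3 peaks of this stretch were single, scattered and low in score. Their scores ran from 50.02 to 133.1 with a median of 59.70, against a median of 234.1 and a highest value of 3200 in the rest of Z. Of the 70 peaks, 63 scored below 100 (90%; 95% Wilson interval 80.8 to 95.1%), against 85 of 261 in the rest of Z (32.6%; interval 27.2 to 38.5%). The highest-scoring stood at the 37.2 percentile of the whole H3K27me3 list. The windows with at least 10 H3K27me3 peaks on other chromosomes each held some higher scores: among the 168 the highest score in a window was at least 560.8, and in 111 it was 3100 or more. Their median scores came closer, with a lowest value of 80.23 against 56.6 to 67.8 in the 5 windows of Z. The window on chromosome 6 that passed the limits of 5 and 1 peaks scored 112.45 at most, with a median of 73.2.

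Width did not separate the stretch from the rest of Z to the same degree. The H3K27me3 peaks had a median width of 1508.5 bp in the stretch (quartiles 1014 and 1951 bp), against 1740 bp (1131 and 2784 bp) in the rest of Z. Among peaks 1000 to 2000 bp wide the median score was 57.95 for 37 peaks in the stretch and 182.2 for 97 peaks elsewhere on Z. Among those 2000 to 3000 bp wide it was 75.49 for 11 peaks and 807.1 for 55. Joining peaks no more than 5 kb apart left 65 domains in the stretch, the longest 8.46 kb, and no domain held more than 2 peaks. Neighbouring peak centres lay a median of 50.2 kb apart.

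The 2 H3K4me3 peaks of the stretch were unlike each other. The one at its edge, from 73161126 to 73163731, was 2606 bp wide and scored 3100, and the nearest H3K27me3 peak was 190 kb away. The other, from 76342101 to 76344107, scored 77.54 and lay wholly within an H3K27me3 peak. It alone broke a run without H3K4me3 from 73163732 to 78343536. The limit of 78 Mb cut this run. The H3K27me3 peaks from 78002894 to 78286933 scored from 50.14 to 90.96 and were counted in the rest of Z. How far repeated sequence or read mapping bears on these low-scoring peaks was not tested, because the lists hold no reads.

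**Figure D2:**
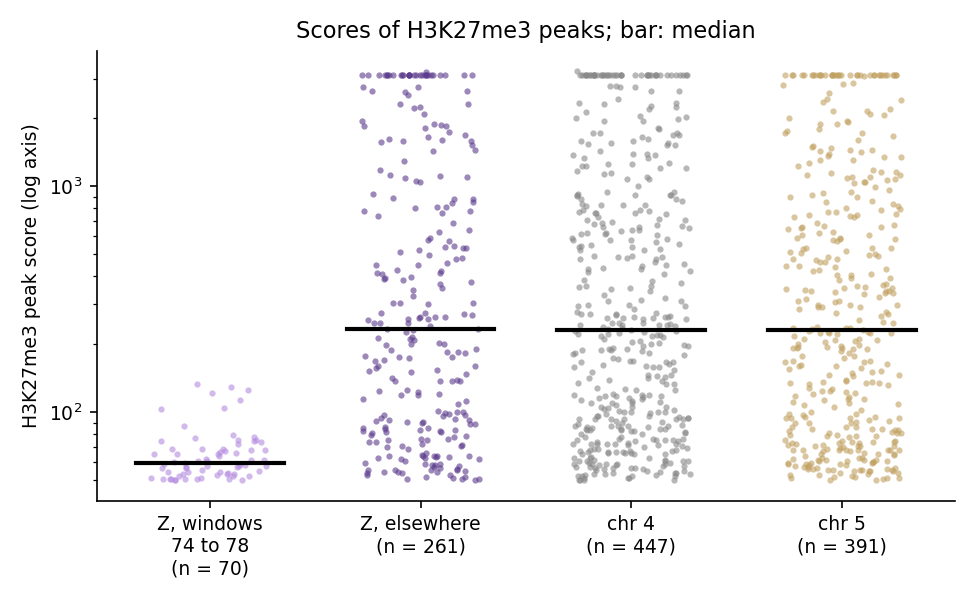
Scores of single H3K27me3 peaks (points, log axis) in windows 74 to 78 of Z, in the rest of Z, and on chromosomes 4 and 5; black bars are medians. Peaks of windows 74 to 78 all score below 134, whereas the other groups have medians of 230 to 234 and reach above 3100.

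The H3K27me3 scores of Z were lower than those of chromosomes 4 and 5 with this stretch and not without it. Over all of Z the median score was 136.8 (quartiles 65.01 and 582.9), against 231.8 on chromosome 4 (86.87 and 867.4) and 230.3 on chromosome 5 (83 and 842.7), and Z ranked 28 of 29 chromosomes. Without the stretch the median on Z was 234.1, close to those of chromosomes 4 and 5, from which no low-scoring stretch was left out. The share of Z peaks at exactly 3100 was 8.76% (95% Wilson interval 6.17 to 12.3%), against 9.62% (7.22 to 12.7%) on chromosome 4, 8.95% (6.51 to 12.2%) on chromosome 5 and 7.48% in the whole list.

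The H3K4me3 scores of Z lay on the other side. The median H3K4me3 score was 1523 on Z (quartiles 584.9 and 2726), against 1171 on chromosome 4 (409.9 and 2282) and 1201 on chromosome 5 (380.9 and 2413). Z ranked first of 29 chromosomes, and the next, chromosome 14, had 1420. When peaks within 1 kb were joined, the highest score of a joined region had a median of 1554 on Z. It was 1307 on chromosome 4 and 1433 on chromosome 5, so the lead of Z was smaller. Peaks at exactly 3100 made up 15.8% on Z (96 peaks; interval 13.1 to 18.9%), against 12.9% (10.9 to 15.3%) on chromosome 4, 14.2% (11.9 to 16.8%) on chromosome 5 and 12.1% in the whole list. Peaks scoring below 300 made up 15.1% on Z (interval 12.5 to 18.2%), against 20.1% (17.6 to 22.8%) and 21.3% (18.6 to 24.4%) on chromosomes 4 and 5.

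H3K4me3 peaks on Z had a close neighbour of the same mark less often than on the other chromosomes with many peaks. Another H3K4me3 peak lay within 1 kb of 27 of 608 peaks on Z, or 4.44% (95% Wilson interval 3.07 to 6.38%). On chromosome 4 the share was 24.0% (interval 21.4 to 26.9%) and on chromosome 5 it was 26.3% (interval 23.3 to 29.5%). Over the 28 numbered chromosomes it ran from 12.5% to 31.4%, with a median of 24.5%. The lowest value was that of chromosome 16, which has 16 H3K4me3 peaks and an interval that overlaps that of Z (3.498 to 36.02%). The difference was present at every level of score. Among peaks scoring below 300 the share was 7.61% on Z, 30.6% on chromosome 4 and 40.2% on chromosome 5; among those scoring 2000 or more it was 3.27%, 15.7% and 11.9%.

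H3K27me3 peaks on Z also had fewer close neighbours than those on chromosomes 4 and 5. Another lay within 1 kb of 27.8% on Z (interval 23.2 to 32.9%), against 47.2% (42.6 to 51.8%) on chromosome 4 and 53.7% (48.8 to 58.6%) on chromosome 5. Over the numbered chromosomes the H3K27me3 share ran from 26.7% on chromosome 25 to 58.6%, with a median of 47.1%. The intervals of chromosomes 10, 14, 16, 25, 26 and 27 overlapped that of Z. Without the windows from 73 to 78 Mb the share on Z was 34.5% (interval 28.98 to 40.4%). That interval also overlapped those of chromosomes 1 (36.5 to 44.5%), 12, 15, 17, 18, 19, 20, 21, 23, 24 and 28. On chromosome 2, with 8.48 H3K4me3 peaks per Mb, the H3K4me3 share was 27.6%. How far these shares follow the density of peaks was not tested.

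**Figure D3:**
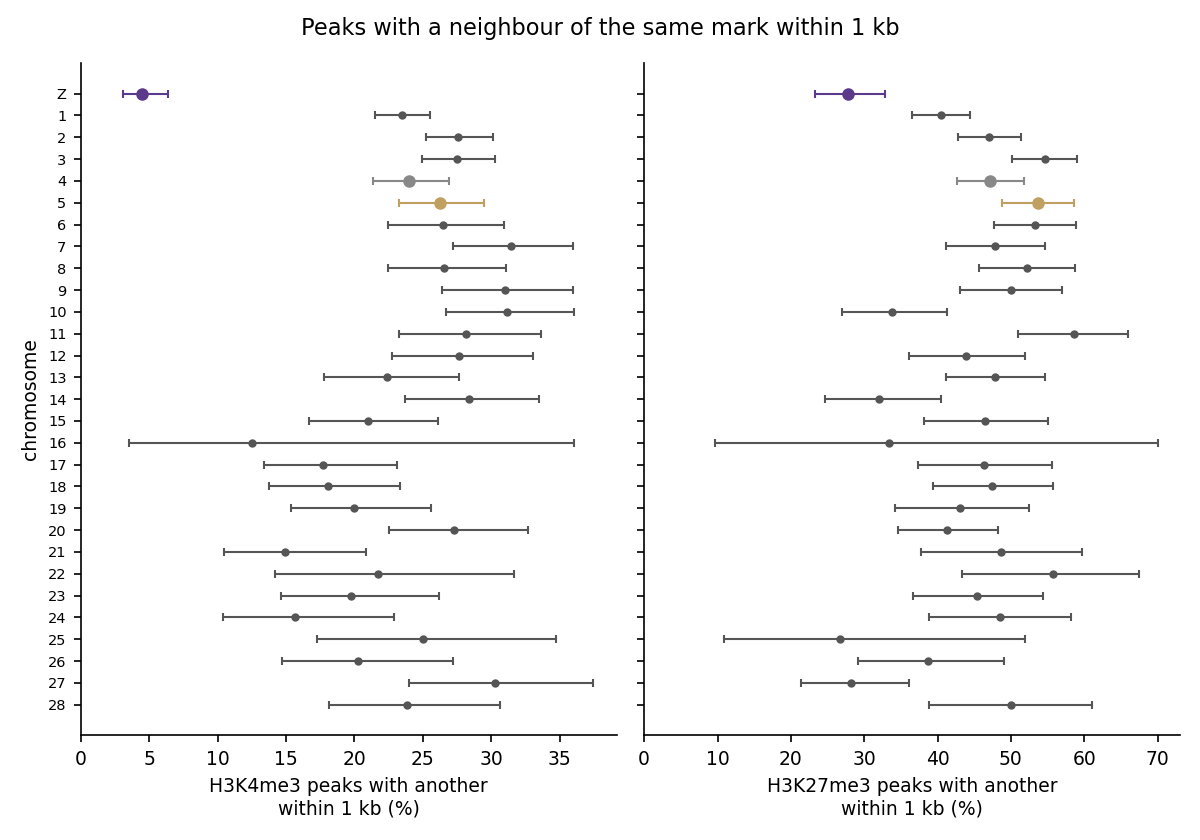
Share of peaks with another peak of the same mark within 1 kb, for H3K4me3 (left) and H3K27me3 (right), by chromosome; points are shares and bars 95% Wilson intervals. For H3K4me3 the point for Z, at 4.44%, lies left of all 28 numbered chromosomes, the lowest of which is at 12.5%.

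How widths compared depended on whether close peaks were joined. As deposited, H3K4me3 peaks were wider on Z, with a median of 1550.5 bp (quartiles 1306 and 1926 bp), than on chromosome 4, with 1434.5 bp (1086 and 1839 bp), or chromosome 5, with 1452 bp (1065 and 1902 bp). Peaks narrower than 1000 bp made up 8.88% of H3K4me3 on Z (interval 6.87 to 11.4%), against 19.6% (17.2 to 22.3%) and 21.1% (18.3 to 24.1%). When peaks within 1 kb were joined, the order turned round, with medians of 1559 bp on Z, 1642 bp on chromosome 4 and 1697.5 bp on chromosome 5. H3K27me3 medians were 1640 bp on Z, 1688 bp on chromosome 4 and 1633 bp on chromosome 5 as deposited, and 1839, 2162.5 and 2239 bp after joining.

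The 5 widest H3K4me3 peaks of Z carried no H3K27me3, like 490 of all 608 H3K4me3 peaks on Z. Of the 104 that scored 3100 or more, only 7 overlapped H3K27me3. The widest ran from 60284729 to 60293136 (8.41 kb) and was followed by peaks from 79447177 to 79453410 (6.23 kb), from 58203522 to 58209546 (6.03 kb), from 70553640 to 70559168 (5.53 kb) and from 47868422 to 47873356 (4.94 kb). Each scored 3100. The nearest H3K27me3 peak lay 2.47, 535, 5.71, 48.1 and 1285 kb away, so some stood at the edge of H3K27me3 and others far from it. Peaks wider than 5 kb made up 0.658% of H3K4me3 on Z (4 peaks; 95% Wilson interval 0.256 to 1.68%), against 0.371% in the whole list.

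Wide H3K27me3 peaks of Z were of a high-scoring and a low-scoring kind. Peaks wider than 5 kb made up 9.06% of H3K27me3 on Z (30 peaks; interval 6.42 to 12.6%), against 7.98% in the whole list. The widest, from 81931259 to 81953521 (22.3 kb), scored 55.73. The fourth, from 82294986 to 82311932 (16.9 kb), scored 149.99, and the fifth, from 82018211 to 82033958 (15.7 kb), scored 173.6. All 3 lie in the last Mb of Z. The second, from 24608939 to 24628347 (19.4 kb), and the third, from 58179123 to 58197812 (18.7 kb), scored 3100. The third ended 1.17 kb before a group of H3K4me3 peaks.

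Of the 9 H3K27me3 peaks on Z wider than 5 kb that scored below 300, 7 lay beyond 81.9 Mb. The other 2 ran from 75594738 to 75601205 (6.47 kb, score 50.44) and from 78093916 to 78099867 (5.95 kb, score 83.05). At 10 kb or more, such low scores were seen at the end of Z and nowhere else on Z or the numbered chromosomes. Z and the numbered chromosomes held 94 H3K27me3 peaks of 10 kb or more. The 5 beyond 81.9 Mb on Z scored between 55.73 and 247.2. The other 89 scored at least 1022, and 80 of them scored 3100 or more, among them the remaining 6 on Z.

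Merging peaks of a mark separated by at most 5 kb gave 562 H3K4me3 and 258 H3K27me3 domains on Z. Most were single peaks, 523 and 210. The share of peaks that joined another was 13.98% for H3K4me3 on Z, against 36.1% and 37.7% on chromosomes 4 and 5, and 36.6% for H3K27me3 on Z, against 60.2% and 64.5%. The median H3K27me3 domain was 1997.5 bp long on Z, 2404.5 bp on chromosome 4 and 2681 bp on chromosome 5. Domains of 10 kb or more numbered 17 on Z, 27 on chromosome 4 and 23 on chromosome 5, and the longest reached 42.2 kb on Z, 76.2 kb on chromosome 4 and 80.045 kb on chromosome 5.

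The 5 longest H3K27me3 domains of Z differed in make-up. The longest ran from 81911329 to 81953521 (42.2 kb), near the end, in 3 peaks scoring 55.73 to 81.62. The second ran from 14997179 to 15019504 (22.3 kb), in 5 peaks of which 3 scored 3100. The third, from 24608939 to 24631049 (22.1 kb), had 2 peaks over 98.7% of its length, and the fourth, from 81598815 to 81619910 (21.1 kb), had 5 peaks. Of these, all but the longest met 1 H3K4me3 peak each. The fifth was the single peak that began at 58179123.

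The fifth domain and the second longest H3K4me3 domain were neighbours. The H3K4me3 domain ran from 58198979 to 58213074 (14.1 kb) in 4 peaks and held no H3K27me3. The longest H3K4me3 domain ran from 60277978 to 60295374 (17.4 kb) in 5 peaks, of which 1 scored 3100, and was met by 2 H3K27me3 peaks over 14.3% of its length. The third, from 1077638 to 1087901 (10.3 kb), the fourth, from 81350661 to 81358829 (8.17 kb), and the fifth, from 41690959 to 41699032 (8.07 kb), had 3, 2 and 2 peaks.

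The marks met on Z far more often than their lengths alone would give. On Z, 118 of 608 H3K4me3 peaks overlapped H3K27me3 by at least 1 bp, or 19.4% (95% Wilson interval 16.5 to 22.7%), and in the whole list the share was 17.8%. If each H3K4me3 peak were put with equal chance at every position of Z, 9.66 would be expected to overlap, so that the observed number was 12.2 times as large (interval of the share alone, 10.4 to 14.3). The expectation was computed exactly, without random draws. It takes no account of promoters or assembly gaps. The observed share was also 19.4% on chromosome 4 (interval 17.0 to 22.1%), and 17.8% on chromosome 5 (15.3 to 20.7%). Uniform placement gave shares of 1.59% on Z, 1.68% on chromosome 4 and 2.20% on chromosome 5. The same fold was 11.5 on chromosome 4 (10.1 to 13.2) and 8.11 on chromosome 5 (6.95 to 9.41). It ranged from 0.977 on chromosome 28 to 18.3 on chromosome 2, and Z ranked 4 of 29. Among Z and chromosomes 1 to 5 the rank of Z was 4 of 6, below chromosomes 1 (16.8), 2 and 3 (13.6).

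Of the H3K27me3 peaks on Z, 122 of 331 overlapped H3K4me3, or 36.9% (interval 31.8 to 42.2%), and in the whole list the share was 35.5%. Uniform placement gave 9.96, a fold of 12.3 (10.6 to 14.02), against 11.4 (10.1 to 12.7) on chromosome 4 and 7.66 (6.66 to 8.74) on chromosome 5. When each peak was placed only within its own 1 Mb window, the folds for H3K4me3 were 10.8 on Z, 8.50 on chromosome 4 and 6.92 on chromosome 5. The stretch from 73 to 78 Mb, chosen for its lack of H3K4me3, held 1 of the overlapping peaks. Without it, 121 of 261 H3K27me3 peaks on Z overlapped (46.4%; interval 40.4 to 52.4%). Of the H3K27me3 domains merged within 5 kb, 44.6% on Z met H3K4me3, against 63.0% on chromosome 4 and 58.4% on chromosome 5. Leaving out the stretch, the share of domains on Z was 59.1% (interval 52.0 to 65.8%).

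**Figure D4:**
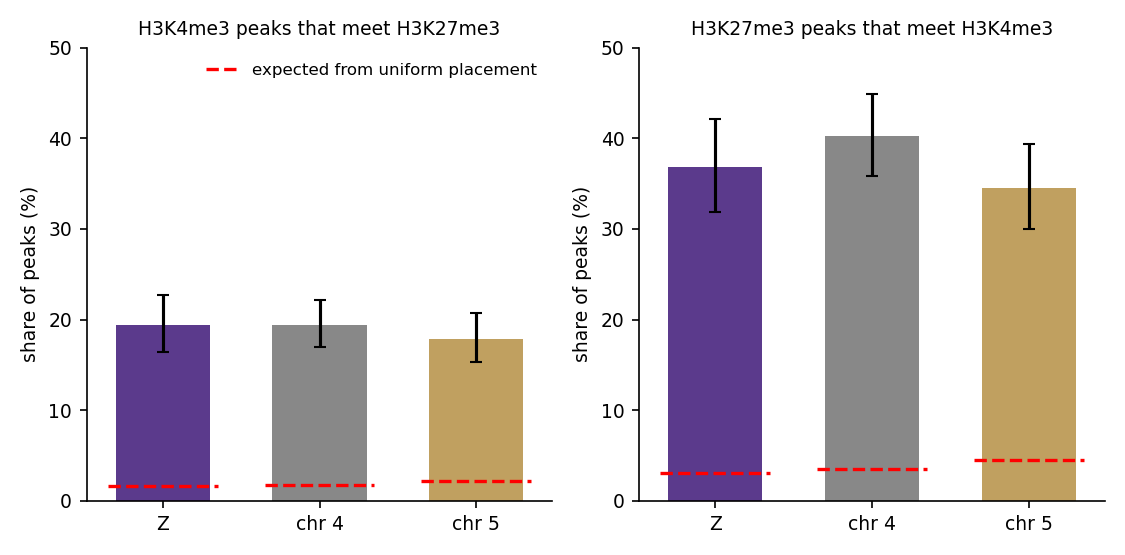
Share of H3K4me3 peaks that overlap H3K27me3 (left) and of H3K27me3 peaks that overlap H3K4me3 (right) on Z and chromosomes 4 and 5; bars are shares, error bars 95% Wilson intervals and red dashes the share expected from uniform placement. On Z the shares of 19.4 and 36.9% stand above expectations of 1.59 and 3.01%.

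Shared H3K4me3 peaks of Z had lower scores than the others, as on chromosomes 4 and 5. The median was 521.0 with H3K27me3 (quartiles 244.4 and 1689) and 1782 without it (880.8 and 2882) on Z. It was 387.1 and 1400 on chromosome 4, and 432.7 and 1453 on chromosome 5. The share that overlapped was 41.3% for Z scores below 300 (95% Wilson interval 31.8 to 51.5%) and 6.73% for scores of 3100 and above (interval 3.30 to 13.2%). On Z, 60 of the 118 shared H3K4me3 peaks lay wholly inside H3K27me3 (50.8%), against 35.6% on chromosome 4 and 40.9% on chromosome 5. The lower quartile of the part of a shared H3K4me3 peak that H3K27me3 covered went the other way. It was 72.4% on Z, 88.1% on chromosome 4 and 84.9% on chromosome 5.

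Shared H3K27me3 peaks of Z had a higher median score than the others, as on chromosomes 4 and 5. The median was 395.6 with H3K4me3 and 77.27 without it on Z, against 341.6 and 166.1 on chromosome 4 and 344.6 and 199.5 on chromosome 5. Leaving out the stretch from 73 to 78 Mb, the medians on Z were 398.5 with H3K4me3 and 121.1 without it. In the class scoring 300 to below 1000, 36 of 49 peaks on Z overlapped H3K4me3 (73.5%; interval 59.7 to 83.79%), against 52.8% (42.5 to 62.8%) on chromosome 4 and 41.4% (31.6 to 51.9%) on chromosome 5. Below 100 the share on Z was 13.5% (interval 8.92 to 19.95%), against 29.1% (22.1 to 37.3%) and 22.3% (15.8 to 30.5%). Without the stretch from 73 to 78 Mb, 20 of the 85 such peaks on Z overlapped, or 23.5% (interval 15.8 to 33.6%).

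**Figure D5:**
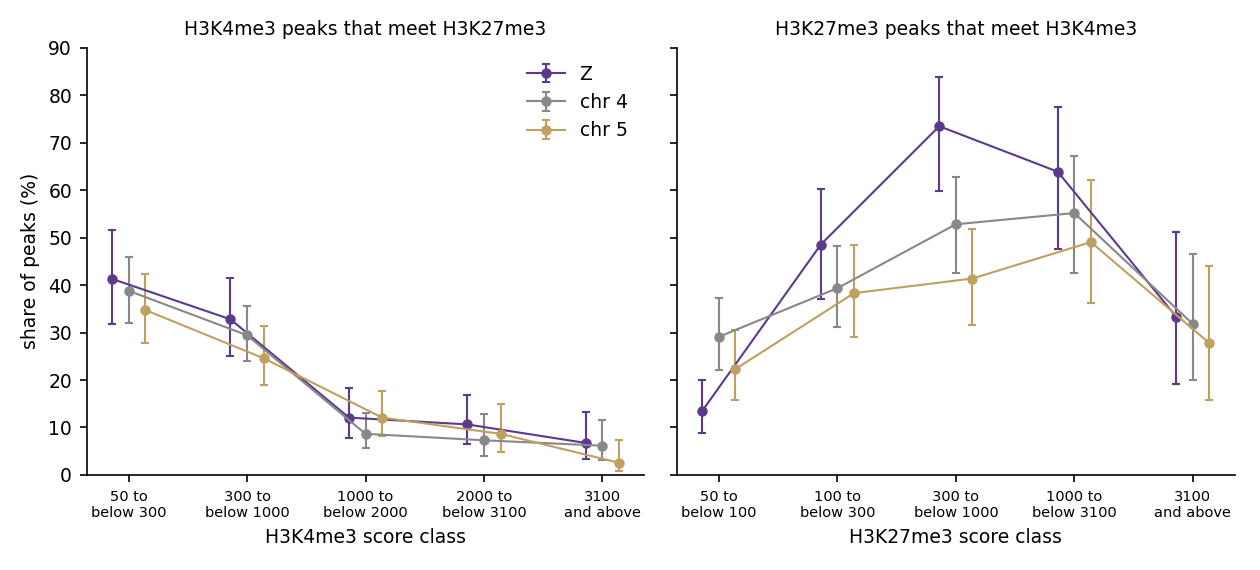
Share of H3K4me3 peaks that overlap H3K27me3 (left) and of H3K27me3 peaks that overlap H3K4me3 (right) by score class of the peak, for Z and chromosomes 4 and 5; bars are 95% Wilson intervals. H3K27me3 peaks of Z scoring 300 to below 1000 overlap in 73.5% of cases, against 52.8 and 41.4% on chromosomes 4 and 5. At 3100 and above the shares are 33.3% on Z and 31.8 and 27.8% on chromosomes 4 and 5.

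Among peaks that reached the median score of their own list, the share that met the other mark was higher on Z for both marks. The intervals of Z overlapped those of chromosome 4 for both marks, and for H3K4me3 also those of chromosome 5. Of 134 such H3K27me3 peaks on Z, 79 met an H3K4me3 peak of any score (58.96%; interval 50.5 to 66.9%), against 48.2% (41.8 to 54.7%) on chromosome 4 and 39.4% (32.9 to 46.3%) on chromosome 5. Of 380 such H3K4me3 peaks on Z, 39 met an H3K27me3 peak of any score (10.3%; interval 7.60 to 13.7%), against 6.72% (4.80 to 9.34%) and 7.98% (5.71 to 11.05%). When the partner also had to reach the median of its list, 25 of the 134 H3K27me3 peaks on Z overlapped (18.7%; interval 13.0 to 26.1%), against 9.21% (6.10 to 13.7%) on chromosome 4 and 7.39% (4.53 to 11.8%) on chromosome 5. For H3K4me3 under this condition, 23 of the 380 peaks on Z overlapped (6.05%; interval 4.07 to 8.92%). The shares were 4.20% (2.74 to 6.40%) on chromosome 4 and 3.74% (2.28 to 6.08%) on chromosome 5, and both intervals overlap that of Z. The numbers were 7.08, 3.58 and 2.31 times the uniform expectation on Z and chromosomes 4 and 5. These folds rest on 23, 20 and 15 overlapping peaks and on unlike expectations of 3.25, 5.59 and 6.49.

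The overlaps on Z formed 123 pairs of peaks, spread over 60 of the 83 windows. The median pair shared 1275 bp (quartiles 1008 and 1789 bp), and the shared bases made up 16.4% of the length of H3K4me3 peaks and 20.7% of that of H3K27me3 peaks. The window from 9 to 10 Mb held 6 pairs, the most on Z. Since the marks were mapped in separate libraries from a mixture of cells, the pairs do not show whether both lay on the same chromatin.

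The longest stretch with both marks ran from 32548746 to 32551969 (3.22 kb), where the H3K4me3 peak, scoring 1252, lay wholly inside H3K27me3 scoring 533.1. The second ran from 421833 to 424695 (2.86 kb), with 3100 for both marks. The third, from 72384873 to 72387468 (2.60 kb), paired H3K4me3 at 3100 with H3K27me3 at 643.8, and the fourth, from 11602610 to 11605147 (2.54 kb), paired H3K4me3 at 350.1 with H3K27me3 at 3100. In the fifth, from 64828971 to 64831409 (2.44 kb), the scores were 2010 and 1616.

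Ranked by the lower of the within-list percentiles of the marks, the pair that began at 421833 came first, at the 92.7 percentile. Its H3K4me3 peak also made the second pair, with the next H3K27me3 peak, from 424745 to 425572. The third lay from 67325647 to 67327863, where H3K4me3 scored 3100 and H3K27me3 scored 1059. The fourth lay from 46580092 to 46580960, with 2450 and 3200, and the fifth from 55529164 to 55530978, with 2190 and 807.1.

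Mark-poor stretches of Z fell between these places. Of the 83 windows, 6 held no H3K4me3 peak, 12 held no H3K27me3 peak and 3 held neither. On chromosome 4, 4, 15 and 4 of 91 windows were of these kinds, and on chromosome 5, 1, 5 and 1 of 60. An absent peak does not show that the mark was absent, since the depth is unknown and assembly gaps are not marked in the lists. The longest stretches without a peak of either mark ran from 47873357 to 49682123 (1.81 Mb), from 4749097 to 6013849 (1.26 Mb), from 69142076 to 70349345 (1.21 Mb), from 27953689 to 28998936 (1.05 Mb) and from 58223306 to 59156026 (0.933 Mb). The first began at the end of one of the 5 widest H3K4me3 peaks.

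Stretches that lacked 1 mark were of different kinds. The longest without H3K4me3 ran from 73163732 to 76342100 (3.18 Mb), with 43 H3K27me3 peaks of median score 58.32. The second, from 76344108 to 78343536 (1.999 Mb), had 34 of median score 60.37. The third, from 4061909 to 6013882 (1.95 Mb), had 1. The fourth began at 47873357, was the same as the longest stretch without either mark, and had none. The fifth, from 69141947 to 70349943 (1.21 Mb), also had none.

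The longest stretches without H3K27me3 all held H3K4me3 peaks. They ran from 46583205 to 50079443 (3.496 Mb), from 1736104 to 4748603 (3.01 Mb), from 27487888 to 29858535 (2.37 Mb), from 50081019 to 52086716 (2.01 Mb) and from 58221732 to 60140061 (1.92 Mb). They held 10, 16, 8, 14 and 8 H3K4me3 peaks, with median scores of 2918, 965.8, 2665, 2679 and 702.8. All Z H3K4me3 peaks without H3K27me3 had a median of 1782, so 3 of the 5 lay above it and the others below. For its length, each stretch held fewer H3K4me3 peaks than Z as a whole, which had 7.39 per Mb. Gaps over 500 kb between H3K27me3 peaks took up 67.7% of Z, against 62.2% of chromosome 4 and 49.6% of chromosome 5. For H3K4me3 they took up 33.6%, 32.7% and 16.7%.

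H3K27me3 was dense at both ends of Z, and H3K4me3 at its start. The first 2 Mb held 30 H3K4me3 peaks, or 15 per Mb (95% Poisson interval 10.1 to 21.4), and 25 H3K27me3 peaks, or 12.5 per Mb (8.09 to 18.5), against 7.39 and 4.02 over all of Z. The last 2 Mb held 29 H3K27me3 peaks, or 14.5 per Mb (9.71 to 20.8). H3K4me3 had 19 there, or 9.5 per Mb, with an interval of 5.72 to 14.8 that includes the value of all of Z. On chromosome 4 the first 2 Mb held 47 and 49 and the last 2 Mb 16 and 24; on chromosome 5 they held 57 and 18, and 45 and 44. The interval held the value of the whole chromosome for H3K4me3 at the end of chromosome 4 (8.0 per Mb; 4.57 to 12.99) and for H3K27me3 at the start of chromosome 5 (9.0 per Mb; 5.33 to 14.2). At the other ends of chromosomes 4 and 5 both marks were denser than over the chromosome.

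The ends of Z differed in what the peaks were. At the start, the outermost peak was H3K27me3 and ended at 14456, and H3K4me3 began at 136075. In the first 2 Mb the H3K27me3 peaks were mostly narrow, with a median of 1409 bp and a median score of 265.1. H3K4me3 had a median score of 1429, and 5 of the 30 peaks overlapped H3K27me3. The strongest shared pair of the chromosome, described above, lies there.

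At the far end H3K27me3 formed wide blocks. In the last 2 Mb the median H3K27me3 peak was 2583 bp wide, and beyond 81.9 Mb it was 10865 bp. That final piece held 9 H3K27me3 peaks, covering 98.7 kb of about 0.4 Mb, with scores from 55.73 to 247.2, and a single H3K4me3 peak that scored 255.7. Shortly before it, from 79.9 to 80.7 Mb, lay 12 H3K27me3 peaks that all scored below 100, and 1 H3K4me3 peak. The window from 81 to 82 Mb, which takes in the start of the final piece, was dense in both marks and high in score. It held 14 H3K4me3 peaks of median score 1834, and H3K27me3 reached 3100. Low-scoring H3K27me3 thus lay in separate pieces of the last 10 Mb, parted by peaks of high score.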

How the data were processed

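Chromatin of neural tubes was profiled with 1 library for each of H3K4me3 and H3K27me3. Per the submitters' processing notes, BWA, MACS2 and the galGal4 assembly were used; versions and parameters are not given. Per the file headers, MACS in Galaxy made 1 list of peaks from each library. Whether it used the Input as control, and which reads were filtered, was not given in the sources used here. Each peak carries a score that the authors deposited, on a scale not named; the depth of the libraries is unknown. Scores were compared within a list.

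Starts were converted to count from 1. A peak belonged to the window that holds its middle. The uniform-placement expectation was the share of possible starts at which a peak of that width meets the other mark, summed over peaks. Overlap counting, this expectation and merging were tested on simulated data. Shares carry 95% Wilson intervals, counts Poisson and ratios exact binomial intervals; neighbouring peaks are not independent. Regions were named by rule (the 5 widest, longest, fullest or highest-ranking of each kind, and the ends). Alternatives were a stricter overlap, higher scores only, other window and merging lengths, and Z without 73 to 78 Mb. The members, the lists and the limits from 73 to 78 Mb were chosen with earlier results of these data known. The available gene table describes another assembly, so genes were not assigned. Python 3.11.15, NumPy 2.4.6, pandas 2.3.3, SciPy 1.17.1 and Matplotlib 3.10.9 were used.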

Additional observations from a re-analysis of the deposited data

How the results depend on the processing

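No paired analysis was possible because each mark has 1 library. Of 62 alternative values, 37 stayed within the interval or 1.5 times the reported value, 20 moved and 5 changed direction. When both lists were held to scores at or above their medians, the shares overlapping were 6.05% (H3K4me3) and 18.7% (H3K27me3), the folds 7.08 and 7.43, the densities 4.62 and 1.63 per Mb, and there were 284 H3K4me3 per 100 H3K27me3 peaks; that setting drops peaks by construction. Requiring 50% of the shorter peak gave folds of 16.7 and 17.0. Windows of 500 kb, by construction emptier, lacked H3K4me3 in 15.2% and H3K27me3 in 35.2% of cases, against 7.23% and 14.5% of 1 Mb windows. Merging within 5 kb gave 218 H3K4me3 per 100 H3K27me3 regions. The alternatives that follow were chosen after seeing the data. Merging within 1 kb gave 212 per 100, a median H3K27me3 length of 1839 bp, and median H3K4me3 lengths 83 and 138.5 bp below chromosomes 4 and 5 (-83 and -138.5, against 116 and 98.5 as deposited). For H3K27me3 it gave -323.5 and -400, against -48 and 7. Without 73 to 78 Mb, H3K27me3 had 3.38 peaks per Mb, 46.4% overlap, a median score of 234.1 (2.28 above chromosome 4 and 3.77 above chromosome 5, against -94.98 and -93.49) and 232 H3K4me3 per 100 H3K27me3 peaks. The longest H3K4me3 domain, 17.4 kb, was 9.92 kb with merging within 1 kb.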
